A study of Danio rerio with 10 samples.

Results

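The genes of the hypoxia-inducible factor (HIF) alpha subunits, their dimer partners and the hydroxylases that control them were compared between hearts of zebrafish kept in hypoxia and in normoxia. Members were all probe sets of the Affymetrix Zebrafish array with exactly 1 gene symbol, where that symbol begins with hif1a, epas1, egln1, egln2 or egln3, or is arnt, arnt2 or vhl. The rule found 12 of the 15502 probe sets that are not controls, and these stand for 9 of the 8793 genes named by a single symbol. They are 7 probe sets of 5 HIF alpha genes (hif1ab, hif1al, hif1al2, epas1a and epas1b), 2 of prolyl hydroxylase genes (egln1b and egln3), 1 of the asparaginyl hydroxylase gene hif1an and 2 of the HIF beta gene arnt2. Other genes of the same families were not analysed here. Biotin-labelled total RNA of the heart was measured on 10 arrays, 5 per group, and no transgene, mutation or drug is named for either group. Arrays 1 to 4 of each group are labelled as biological samples and array 5 as a technical repeat of sample 2. The sources used here give no oxygen level, exposure time, strain, age or sex, and do not say how many hearts were pooled.

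HIF is a transcription factor made of an oxygen-labile alpha subunit and a stable beta subunit. With oxygen present, prolyl hydroxylases of the EGLN family modify the alpha subunit, which the VHL ubiquitin ligase then recognises and sends to the proteasome, while the asparaginyl hydroxylase FIH, encoded by hif1an, blocks binding of the coactivators CBP and p300. With little oxygen both reactions slow, the alpha subunit accumulates and HIF switches on its targets. In mammals EGLN1 and EGLN3 are such targets themselves, so the pathway makes transcripts for its own inhibitors. Since alpha subunits are controlled largely at the protein level, an array that measures transcripts does not report how much HIF protein the hearts held.

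The counted samples were fewer than the arrays. Arrays were compared by the SD of their log2 differences across 2247 bright probe sets, which was 0.105 for hypoxia 2 and its repeat and 0.151 for normoxia 2 and its repeat. Arrays hypoxia 1 and 4 (0.112) and arrays normoxia 3 and 4 (0.0927), labelled as separate samples, differed by no more than the normoxia repeat, and the other 16 pairs within a group had 0.268 to 0.635. Each of these pairs was averaged as a single sample, so that 3 samples stood in each group, called hypoxia 1/4, 2 and 3 and normoxia 1, 2 and 3/4. The limit for averaging was the normoxia repeat, and the wash records of both array 5 repeats ended in an abort. By the hypoxia repeat alone (0.105), hypoxia 1 and 4 (0.112) would have stayed separate. The description of hypoxia array 5 also carries the number 4, and the array was taken as the repeat of hypoxia 2 that the same description names. Nothing in the labels says that samples came from separate tanks or exposures, so p-values measure the spread between these samples only. Of 11 cardiomyocyte genes on the array, 9 were tested, with mean log2 intensities from 8.38 (nkx2.5) to 12.90 (actc1a) in hypoxia and from 8.69 to 12.96 in normoxia, and the myosin light chain gene myl7 at 12.82 ± 0.04 and 12.84 ± 0.02 (SD, n = 3). The transcription factor genes tbx5a and gata4 were not above a background bound of 27.0 intensity units on any array.

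Both HIF prolyl hydroxylase genes that the rule found had higher transcript levels in hypoxic hearts, egln3 by 4.0-fold and egln1b by 1.504-fold. The gene egln3 encodes a HIF prolyl hydroxylase known in mammals as a strongly hypoxia-inducible member of its family. Its log2 intensities were 9.31, 9.29 and 9.09 in hypoxia 1/4, 2 and 3, and 6.99, 7.08 and 7.62 in normoxia 1, 2 and 3/4. All hypoxia samples lay above all normoxia samples, with 1.47 log2 between the lowest hypoxic and the highest normoxic sample, and all 5 hypoxia arrays lay above all 5 normoxia arrays. The means were 9.23 ± 0.13 in hypoxia and 7.23 ± 0.34 in normoxia (SD, n = 3), a difference of 2.00 ± 0.18 (SE), or 2.98- to 5.36-fold as a 95% interval, with an adjusted p of 0.0146 in limma. By p-value egln3 stood 8th of the 10851 probe sets tested. On the linear scale the 5 hypoxia arrays read 543 to 640 intensity units and the 5 normoxia arrays 122.9 to 200.1. In bulk heart RNA, a change in the share of cells that express a gene and a change in RNA per cell cannot be told apart.

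The gene egln1b encodes a zebrafish counterpart of EGLN1, in mammals the main prolyl hydroxylase that restrains HIF under normal oxygen. Its log2 intensities were 8.47, 8.42 and 8.40 in the hypoxia samples and 7.75, 7.80 and 7.98 in the normoxia samples. The groups did not overlap, and the hypoxia samples were the more alike, with an SD of 0.03 against 0.12 (n = 3). The difference was 0.59 ± 0.10 log2 (SE), or 1.28- to 1.76-fold as a 95% interval, with an adjusted p of 0.0288 in limma. The call was lost without any 1 of the 6 samples in turn (adjusted p = 0.0534 to 0.0995), with the deposited values (0.47, adjusted p = 0.248), under median scaling (0.40, adjusted p = 0.0768) and with no intensity trend in the model (adjusted p = 0.0750).

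The asparaginyl hydroxylase gene hif1an did not pass the threshold. Its values were 8.04, 7.85 and 7.88 in hypoxia and 7.47, 7.32 and 7.57 in normoxia (log2 intensity). Here too all hypoxia samples were above all normoxia samples, by 0.28 log2 at the closest. The difference was 0.47 ± 0.11 (SE), 1.38-fold, with an adjusted p of 0.0768 in limma. With the 8 samples as labelled it was also 0.47 and was called (adjusted p = 0.0119). Over 25 other settings of scaling, filter, model and samples it was called in 5, with differences of 0.30 to 0.53. Each of these 5 took near-identical arrays as separate samples or used all 10 arrays. With the counted samples, no change of scaling or filter called it (adjusted p = 0.0543 to 0.445 in limma).

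**Figure D1:**
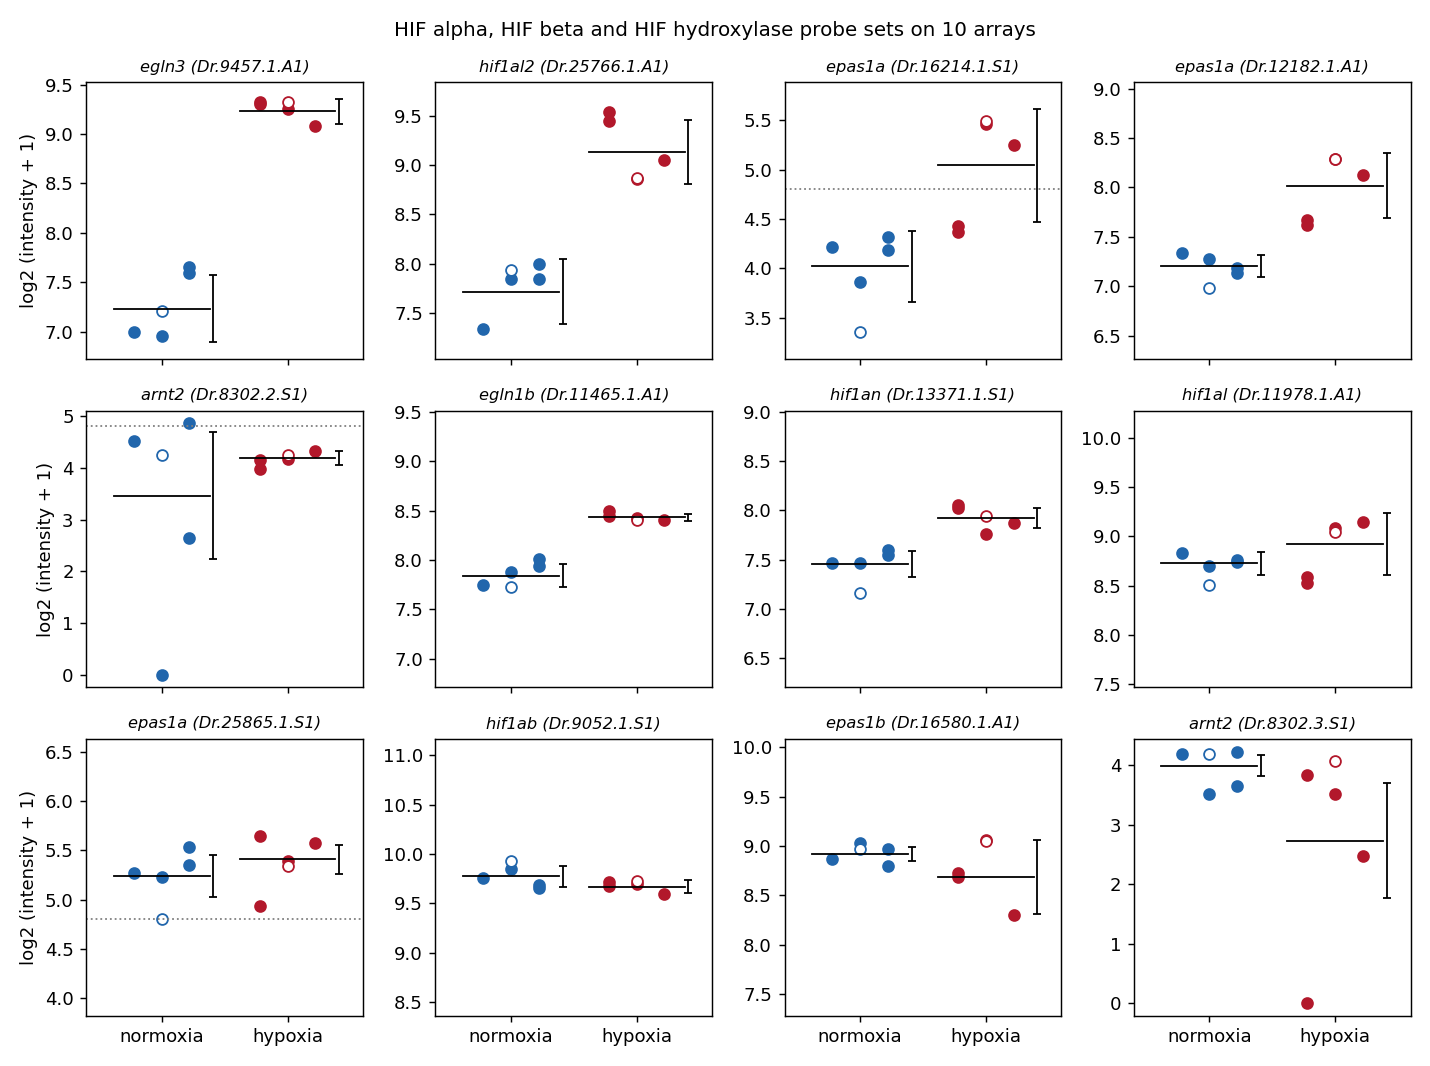
Log2 (intensity + 1) of the 12 member probe sets on the 10 arrays, in order of their difference, with samples side by side within each group, the repeat array 5 as an open circle, the mean of the 3 counted samples as a line, their SD as a bar beside it and the background bound of 27.0 intensity units dotted where it falls in the panel. Each panel has its own vertical axis. The points of egln3 and hif1al2 separate by 1.47 and 0.94 log2 between counted samples, while those of hif1ab and epas1b overlap.

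Among the HIF alpha genes, hif1al2 rose by 2.68-fold and the remaining 4 genes had no probe set past the threshold. The gene hif1al2 is an alpha-like paralog that RefSeq lists with hif1al, now the symbol of another member, as an older name. Its log2 intensities were 9.49, 8.86 and 9.05 in the hypoxia samples and 7.34, 7.89 and 7.92 in the normoxia samples. The groups did not overlap, with hypoxia 1/4 highest and normoxia 1 lowest. The means were 9.14 ± 0.32 and 7.72 ± 0.33 (SD, n = 3), and the difference was 1.42 ± 0.22 (SE), or 1.87- to 3.83-fold as a 95% interval, with an adjusted p of 0.0269 in limma. The call was kept without hypoxia 2 (1.56, adjusted p = 0.0392) and lost without any other 1 sample, with differences of 1.23 to 1.52 and adjusted p of 0.0580 to 0.0968. With no filter on dim probe sets it was lost as well (adjusted p = 0.0729).

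The gene epas1a, which encodes a HIF-2 alpha subunit, had 3 probe sets that differed in brightness and in change. The brightest read 7.65, 8.29 and 8.12 in hypoxia and 7.33, 7.13 and 7.16 in normoxia. All hypoxia samples were above all normoxia samples, and hypoxia 1/4 was the closest to them. The difference was 0.81 ± 0.18 log2 (SE), 1.76-fold, and did not pass the threshold (adjusted p = 0.0587 in limma). It passed with the 8 samples as labelled (0.73, adjusted p = 0.0170), a fit that counts near-identical arrays as separate samples. It also passed without hypoxia 1/4 (0.999, adjusted p = 0.0407). Over 25 other settings of scaling, filter, model and samples it was called in 8, with differences of 0.66 to 0.999. These include the dimmest 50% left out and robust eBayes. Apart from these and the fit without hypoxia 1/4, the calls used the samples as labelled or all 10 arrays. The dimmest probe set was not above the background bound of 27.0 intensity units on any normoxia array and was above it on 3 of 5 hypoxia arrays, those of hypoxia 2, its repeat and hypoxia 3. On the hypoxia 1 and 4 arrays it read 20.6 and 19.6 intensity units, against 43.1 and 43.9 for hypoxia 2 and its repeat and 37.1 for hypoxia 3. It was not called (adjusted p = 0.163 in limma). With values under the bound raised to it, the difference was 0.37 log2 (adjusted p = 0.315 in limma). No smallest fold change is given, since hypoxia 1/4 was itself under the bound. The probe set of intermediate brightness read 5.29, 5.37 and 5.58 in hypoxia and 5.27, 5.02 and 5.44 in normoxia, low values but above the bound on all 10 arrays. Its groups overlapped, and the difference was 0.17 ± 0.18 (SE, adjusted p = 0.637), beside 0.71 log2 between hypoxia arrays 1 and 4, which were counted as 1 sample.

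The gene hif1al, which RefSeq also lists as Hif-3alpha, read 8.56, 9.07 and 9.14 in hypoxia and 8.83, 8.602 and 8.75 in normoxia (log2 intensity). Hypoxia 1/4 was below every normoxia sample and the other 2 hypoxia samples were above, so the groups overlapped. The difference was 0.20 ± 0.16 (SE, adjusted p = 0.546), or 0.873- to 1.503-fold as a 95% interval. Its sign was not stable to the scaling, with -0.025 under median scaling.

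The gene hif1ab, for which RefSeq also lists hif1a, encodes a HIF-1 alpha subunit. It read 9.70, 9.71 and 9.59 in hypoxia and 9.76, 9.89 and 9.67 in normoxia. The groups overlapped, with hypoxia 3 the lowest and normoxia 2 the highest. The difference was -0.10 ± 0.08 (SE, adjusted p = 0.509), with a 95% interval of 0.814- to 1.06-fold. The second HIF-2 alpha gene, epas1b, read 8.70, 9.05 and 8.30 in hypoxia and 8.87, 9.001 and 8.88 in normoxia. Here hypoxia 3 was the lowest and hypoxia 2 the highest of the 6 samples. The difference was -0.23 ± 0.18 (SE, adjusted p = 0.520), or 0.629- to 1.15-fold as a 95% interval.

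The HIF beta gene arnt2, whose product dimerises with alpha subunits, was not measurable on these arrays. Of its 2 probe sets, one was not above the bound on any of the 10 arrays, and the other was above it on 1 array only, normoxia 3, at 28.1 intensity units. Both were among the dimmest 30% of probe sets and were left out of the test. No fold change is given for them, since neither group had a mean above the bound.

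Of the 12 member probe sets 10 passed the filter on dim probe sets and were tested. In limma 3 of them were called, all higher in hypoxia, while 3.98% of the 10851 probe sets tested were called in either direction and 0.968% were called higher. Over all probe sets 105 were called higher and 327 lower, a split that moved with the scaling, to 43 and 60 with the deposited values, 76 and 717 under median scaling and 140 and 228 under cyclic loess. The dimmest epas1a probe set passed the filter through its hypoxia values alone, so it had to differ and is left out of the counts that follow. Of the other 9, the samples of the 2 groups did not overlap for 5, each higher in hypoxia. Over all probe sets tested the share was 27.2% in either direction, and the share for higher alone was not computed. The median difference of the 9 was 0.47 log2, and that of all probe sets tested was -0.05. With the 8 samples as labelled, 5 of the 9 were called (egln3, hif1al2, egln1b, hif1an and the brightest epas1a probe set), against 12.9% of all probe sets. The adjusted p in that fit was 0.000463 for egln3 and 0.00218 for hif1al2, but it counts near-identical arrays as separate samples. For single values, 3 samples against 3 cannot give an exact two-sided permutation p under 0.1, which these 5 non-overlapping members had, and with 4 samples against 4 the smallest exact p is 0.0286, which the same 5 reached.

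**Figure D2:**
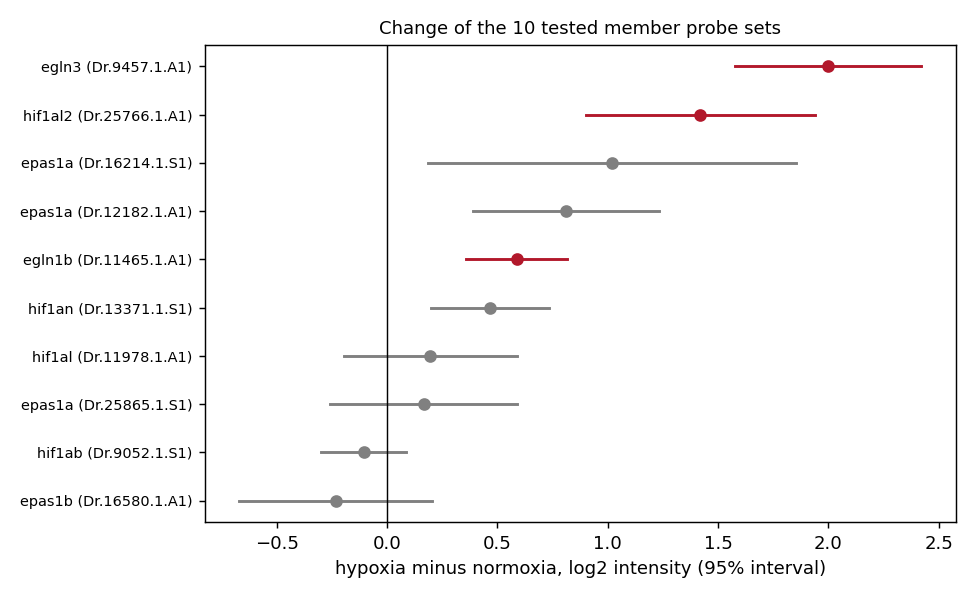
Difference between hypoxia and normoxia in log2 intensity, with its 95% interval from limma, for the 10 member probe sets tested, n = 3 samples per group. The 3 called probe sets, egln3, hif1al2 and egln1b, are in red and the others in grey, and the intervals of hif1al, the intermediate epas1a probe set, hif1ab and epas1b cross 0.

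Paralogs were then set against each other by their changes, not their levels, since probe sets differ in brightness for reasons of design. Of 22 pairs of tested probe sets within a family, 15 are of different genes and do not use the dimmest epas1a probe set. The change of one minus that of the other did not overlap between groups for 8 of these 15. The same share over other pairs of probe sets was not computed. Each of the 8 holds egln3, hif1al2 or the brightest epas1a probe set, whose own groups did not overlap, so the count is not separate from those changes. The change of egln1b minus that of egln3 was -1.41 ± 0.14 log2 (SE, n = 3), with an exact permutation p of 0.1, the smallest possible. Against hif1al2, the change of hif1ab differed by -1.53 ± 0.27, that of epas1b by -1.65 ± 0.36 and that of hif1al by -1.22 ± 0.44, each below it with non-overlapping samples and with the same p. The brightest epas1a probe set exceeded epas1b by 1.05 ± 0.28 and hif1ab by 0.92 ± 0.22, again with non-overlapping samples. The change of this epas1a probe set minus that of hif1al2 was -0.61 ± 0.46 and overlapped between groups (exact permutation p = 0.4). The brightest and the intermediate epas1a probe sets, which report the same gene, differed by 0.65 ± 0.21 in their change with no overlap (exact permutation p = 0.1). None of the 22 pairs passed after adjustment in the exact permutation test, where 3 against 3 samples allow no adjusted p under 0.05. With the 8 samples as labelled, 8 of the 15 pairs had an exact permutation p of 0.0286 and an adjusted p of 0.0571 over the 22. That test counts near-identical arrays as separate samples.

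The direction of the leading members held in each hybridization run. Arrays 1 and 2 of each group were in run 1, arrays 3 and 4 in run 2 and the repeat arrays in run 3. The egln3 difference was 2.32, 1.57 and 2.11 log2 in runs 1, 2 and 3, that of hif1al2 was 1.56, 1.37 and 0.93, and that of egln1b 0.62, 0.48 and 0.68. Runs are not independent here, since run 3 repeats RNA of run 1 and hypoxia 1 and 4 were counted as 1 sample. Both normoxia arrays of run 2, normoxia 3 and 4, were also counted as 1 sample, and run 3 had 1 array per group. The differences within runs 2 and 3 therefore each rest on 1 counted normoxia sample. Wash records of both run 3 arrays ended in an abort. Over 25 other settings the egln3 difference ranged from 1.57 to 2.32 and was called in 20, that of hif1al2 from 1.21 to 1.56 and in 15, and that of egln1b from 0.40 to 0.66 and in 13. The call of egln3 was lost without hypoxia 3 (2.07, adjusted p = 0.0638) and kept without any other 1 sample. With no intensity trend it was lost too (adjusted p = 0.0596), as was that of hif1al2 (0.0737), and within run 1 or run 2 alone none of the 3 was called.

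**Figure D3:**
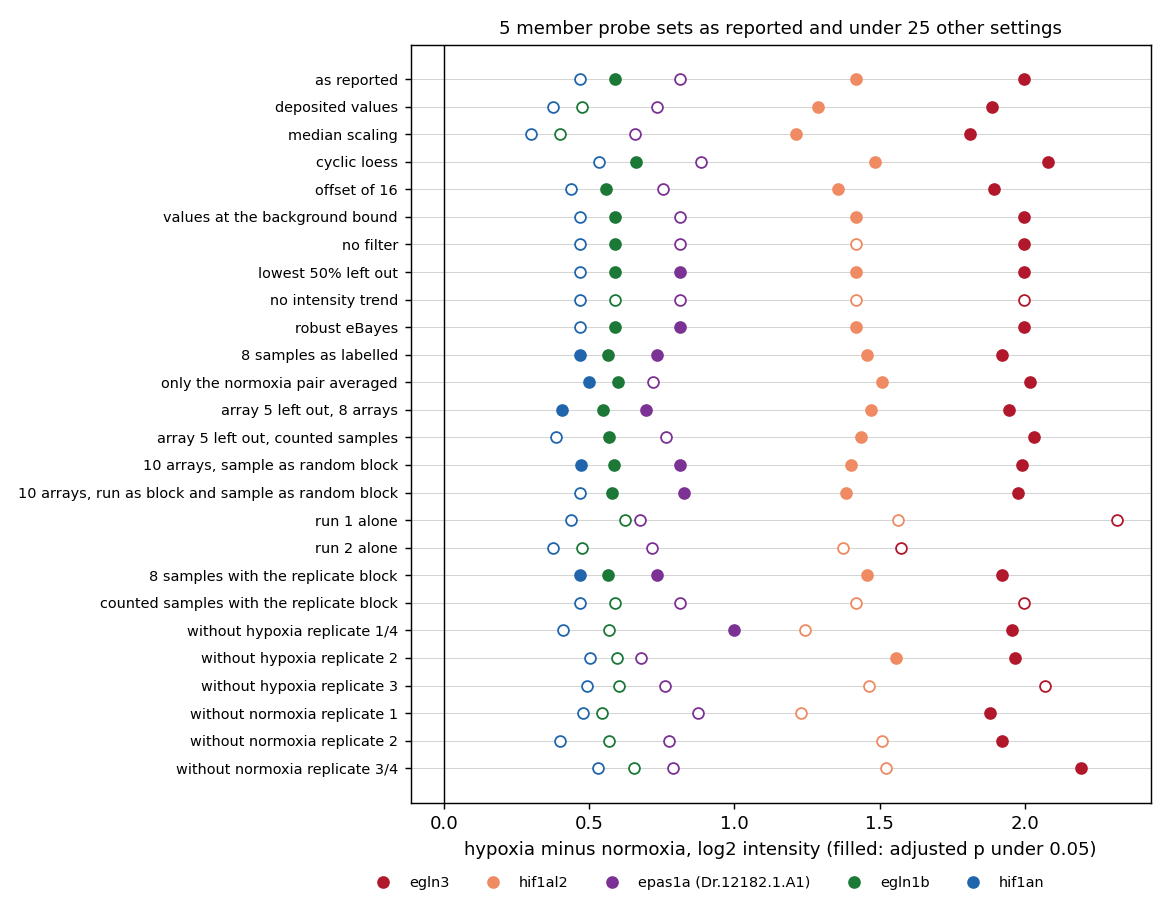
Difference between hypoxia and normoxia in log2 intensity for 5 member probe sets, as reported (top) and under 25 other settings of scaling, filter, model and samples. Filled circles passed the adjusted p threshold of 0.05 and open ones did not, and every value of these 5 lies above 0.

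Markers of other cells moved with the groups as well. Of 13 red blood cell genes tested, 7 rose and all 13 had differences above 0, and their summed intensity was 25092 to 30408 in hypoxia against 19557 to 20898 in normoxia, with none of the 13 under the background bound throughout. Of 15 liver genes tested, 2 rose and all 15 had differences above 0, and their summed intensity was 14322 to 27422 in hypoxia against 1305 to 9506 in normoxia, again with none under the bound throughout. Over all probe sets tested, 0.968% were called higher and 3.98% in either direction. The share of all probe sets with differences above 0 was not computed, and their median difference was -0.05. The liver sum was lowest within hypoxia in hypoxia 1/4, where hif1al2 was highest and hif1al and the brightest epas1a probe set lowest. Within normoxia the order was the reverse. There the liver sum was lowest in normoxia 1, where hif1al2 was lowest and hif1al and that epas1a probe set highest. Hypoxia 1/4 also had the highest red blood cell and cardiomyocyte sums within hypoxia, and the highest egln3, egln1b and hif1an. Within normoxia these did not go together. Both sums were highest in normoxia 1 (20898 and 38689), where egln3 (6.99) and egln1b (7.75) were lowest and hif1an (7.47) was intermediate. The 9 cardiomyocyte genes tested summed to 33493 to 35098 in hypoxia against 36742 to 38689 in normoxia, with myh7 (-0.89, adjusted p = 0.0277) and ttn.2 (-0.56, adjusted p = 0.0175) lower. The summed levels of 7 other marker lists overlapped between groups, but single genes in 2 of them were called. In the epithelium list epcam (2.88, adjusted p = 0.0269) and elf3 (2.30, adjusted p = 0.0394) were higher in hypoxia, and in the digestive list the chymotrypsinogen gene ctrb.1 was lower (-3.16, adjusted p = 0.0151). Other genes of these lists went the other way without being called. Differences were above 0 for 7 of 11 epithelium genes tested, with krt5 at -0.73 and cldnb at -0.72. They were above 0 for 3 of 8 digestive genes tested, with prss1 at 1.26. Of 6 egg genes tested 0 were called in limma and all 6 had differences above 0, with a median of 1.45 and sums of 5900 to 7571 in hypoxia against 726 to 8540 in normoxia. These sums mostly follow the vitellogenin gene vtg2, with mean log2 of 12.56 in hypoxia and 11.54 in normoxia. The next brightest, ccnb1, had 7.30 and 5.82. The egg genes besides vtg2 were above every normoxia sample in hypoxia 1/4 and hypoxia 3, while in hypoxia 2 only zp3b was. The endothelium list (897 to 1154 against 920 to 1066 over 5 genes) and the leukocyte list (6712 to 8655 against 6495 to 7925 over 10 genes) held no called gene. Those of 2 epicardium genes did not (358 to 445 against 482 to 556), and neither gene was called. The part of these shifts in the member values was not tested.

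Among genes that HIF is known to act on in vertebrates, 40 besides egln3 were tested, and 5 rose and 0 fell, where 0.968% of all probe sets tested were called higher and 3.98% in either direction. The gene igfbp1a, whose product binds insulin-like growth factors, read 10.25, 10.41 and 9.59 in hypoxia and 8.28, 9.09 and 8.39 in normoxia. The groups did not overlap, and the difference was 1.49 ± 0.28 (SE, adjusted p = 0.0408 in limma), with 1.58 at its second probe set (adjusted p = 0.0284). The oxidase gene ero1a, which acts in protein folding, rose by 1.04 ± 0.11 (adjusted p = 0.0169). The gene p4ha1b, a prolyl hydroxylase of collagen, rose by 0.98 ± 0.11, and plod1a, a lysyl hydroxylase of collagen, by 0.64 ± 0.10 (adjusted p = 0.0169 and 0.0269). The gene bnip3lb, a receptor in mitophagy, rose by 0.58 ± 0.08 (adjusted p = 0.0269) and by 1.19 at a second probe set (adjusted p = 0.0277). The groups did not overlap for 16 of the 40, 10 higher and 6 lower, against 27.2% of all probe sets tested, and the median difference was 0.08, against -0.05. Among the non-overlapping genes is tfa, the transferrin gene, at 1.35 (adjusted p = 0.199), which is also in the liver list. The part of the liver and red blood cell shifts in the values of these 40 genes, the 5 called ones included, was not tested. For ldha, a lactate dehydrogenase gene, the difference was 0.27 (adjusted p = 0.0702), with no overlap. For vegfaa, which encodes a growth factor of blood vessels, it was -0.33 (adjusted p = 0.162), with every hypoxia sample below every normoxia sample. The glycolytic regulator gene pfkfb3 had -0.39 and overlapped (adjusted p = 0.279). With the 8 samples as labelled, 10 of the 40 were called higher and 3 lower, vegfaa among the latter (adjusted p = 0.0458), against 12.9% of all probe sets called in either direction.

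Of 18 genes tested from the list of HIF degradation and coactivators, hif1an aside, 0 rose and 1 fell. That share is near the 3.98% of all probe sets tested that were called in either direction. The groups did not overlap for 4 of the 18, against 27.2%, and the median difference was 0.09. The one that fell was cited4a, which encodes a protein that binds CBP and p300. It read 9.16, 9.53 and 9.19 in hypoxia and 10.35, 10.44 and 10.23 in normoxia. The groups did not overlap, and the difference was -1.05 ± 0.12 log2 (SE, adjusted p = 0.0169 in limma). The elongin C gene eloca, part of the VHL ligase, had 0.53 (adjusted p = 0.108) and the brighter probe set of the elongin B gene elob 0.22 (adjusted p = 0.231), both without overlap between groups. The dimmer elob probe set had -0.24 (adjusted p = 0.552). Other genes of the ligase, elocb at 0.07 (adjusted p = 0.735) and rbx1 at 0.05 (adjusted p = 0.777), overlapped between groups. Of 7 other genes tested from the bHLH-PAS family, to which the HIF subunits belong, and its cofactors, 0 were called in limma and 0 had an unadjusted p under 0.05, with a median difference of -0.02. Of these 7, bmal2 and npas2 were above the bound on only 1 and 2 of the 10 arrays, so both were barely measurable. A further 6 genes of the bHLH-PAS list were not above the bound on any array.

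**Figure D4:**
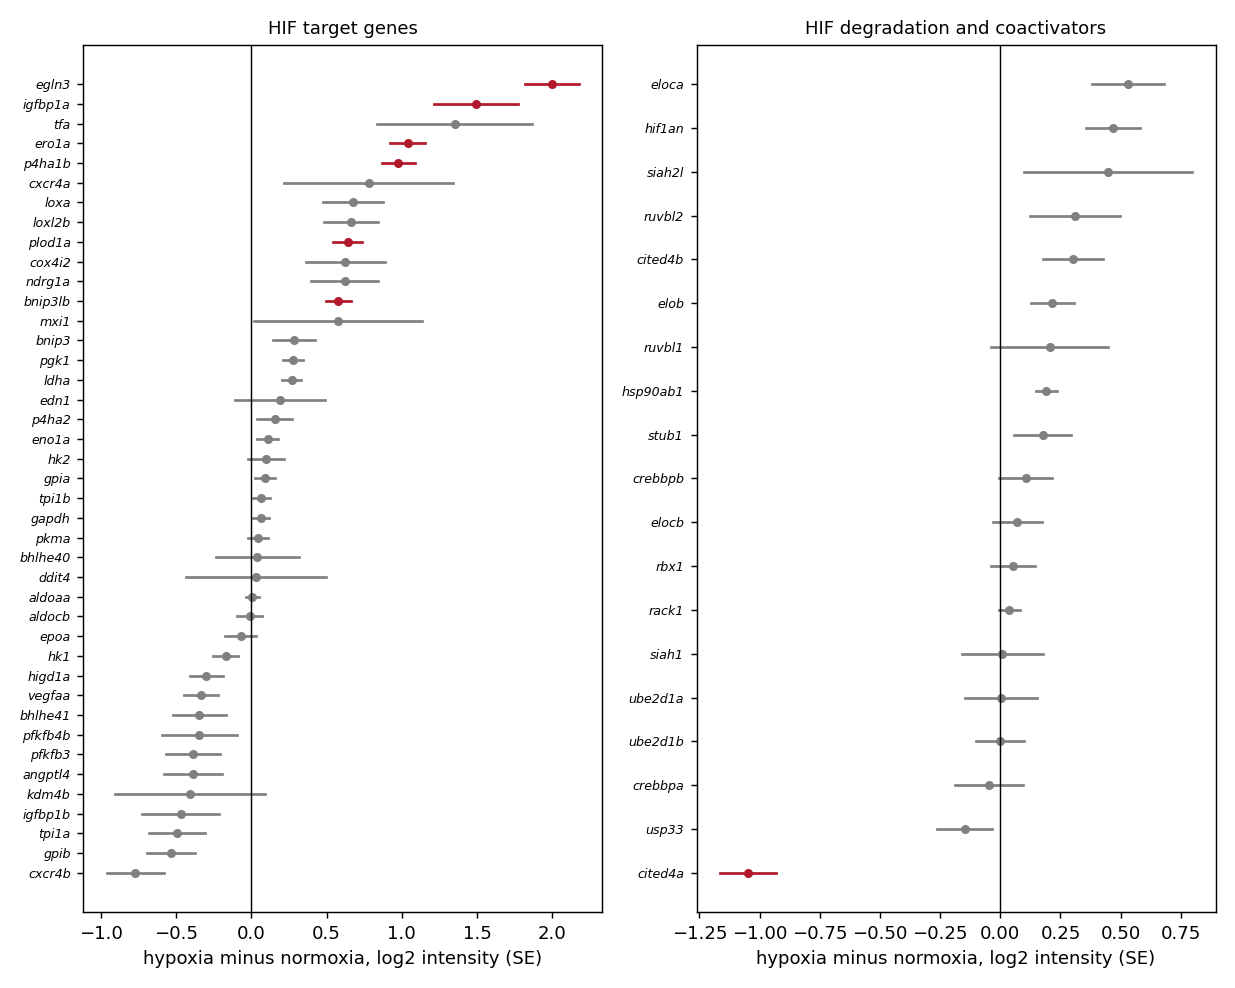
Difference between hypoxia and normoxia in log2 intensity with its SE from limma (n = 3 samples per group) for HIF target genes on the left, egln3 included, and for genes of HIF degradation and coactivation on the right, hif1an included, 1 probe set per gene. Called genes are in red, and the outermost points are egln3 at 2.00 and igfbp1a at 1.49 upward and cited4a at -1.05 downward.

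The genes most like each called member over the 10 arrays were found by Pearson's r among tested probe sets with 1 symbol, as a description, since arrays share groups, samples and runs. For egln3 they were the poly(A)-binding protein gene pabpc1a (r = 0.992), the amine oxidase gene aoc2 (0.982) and cldc1 (0.981). For egln1b they were egln3 itself (0.980), p4ha1b (0.975) and the cytochrome P450 gene cyp1a (0.975). For hif1al2 they were the translation initiation factor gene eif2s1b (0.990), the purine salvage gene hprt1l (0.977) and p4ha1b (0.974). All of these had higher values in hypoxia, by 0.40 for eif2s1b to 2.31 for cyp1a, and eif2s1b and hprt1l were not called (adjusted p = 0.0728 and 0.0702). Their direction follows from the choice, since each member they resemble was itself higher in hypoxia.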

How the data were processed

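The deposited table gives, for each array, an intensity of 15617 probe sets, 115 of which are controls. The software behind it is not given in the sources used here. Per array 7.86 to 10.1% of values were at or below 0, as in background-subtracted signals, and medians ran from 36.2 to 51.6, so arrays were not at a common level. The deposited array records (another unit, text) gave 3 hybridization runs, with wash records of run 3 ending in an abort. Names came from GEO's platform table, which gives 10795 probe sets 1 symbol, 135 several and 4572 none, and 10711 of the 10795 matched a RefSeq gene (GRCz12tu) by identifier. No sequences or coordinates are shown, since no genome or sequence table was used here.

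Quantile normalization was applied to the linear values, followed by log2 after adding 1, with sums under 1 set to 1. Controls and the lowest 30% by mean log2 (under 4.03) were left out, leaving 10851. The background bound is 2 times an SD of 13.5 from the negative values. Limma 3.58.1 (R 4.3.3; lmFit, eBayes with an intensity trend) compared the counted samples, two-sided, with Benjamini-Hochberg adjusted p under 0.05 over all 10851. In list tests a gene was represented by its brightest probe set. The number of arrays limits the precision. Scripts were tested on simulated data. Members, lists and the averaging of array pairs were chosen with earlier results of these data known. Named genes are all members, called genes of the HIF lists, a panel (ldha, vegfaa, igfbp1a, bnip3lb, pfkfb3; ankrd37, slc2a1a and cited2 were not analysed here) and the 3 genes most like each called member. The genes eloca, elob, elocb, rbx1, bmal2, npas2, tfa and the single marker genes were chosen after their values were seen. So were the counts without the dimmest epas1a probe set. Figures used Python 3.11.15, pandas 2.3.3 and matplotlib 3.10.9.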

Additional observations from a re-analysis of the deposited data

How the results depend on the processing

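Of 3 member calls and 432 calls in all, the deposited values gave 2 and 103, median scaling 2 and 793, no filter 2 and 171 and no intensity trend 0 and 2. With 8 samples as labelled there were 5 and 1397, with array 5 left out of these 5 and 1438, with the normoxia pair alone averaged 4 and 818, with all arrays and a random block for samples 5 and 1013, and with the run added 4 and 870. Run 1 alone gave 0 and 0 in limma (5 and 1655 at unadjusted p under 0.05) and run 2 alone 0 and 11. Leaving out 1 counted sample gave 0 to 2 member calls and 1 to 226 in all, each from fewer samples, the lowest without hypoxia 3 (0 and 1) and then normoxia 1 (1 and 23); without hypoxia 1/4, hypoxia 2, normoxia 2 and normoxia 3/4 there were 2 and 87, 2 and 226, 1 and 96, and 1 and 82. Cyclic loess, an offset of 16, the bound as a floor, the dimmest 50% left out, robust eBayes and array 5 left out of the counted samples (chosen after seeing the data) kept both counts within 1.5 times. Deviations of same-numbered samples correlated at 0.21 and 0.13 for numbers 1 and 2 and at -0.02 and -0.10 for numbers 3 and 4, so the numbers were not taken as pairs. A replicate block gave 5 and 1071 with 8 samples and 0 and 11 with counted samples, where adjusted p was 0.0547 for egln3, 0.0795 for hif1al2 and 0.0742 for egln1b.

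Median scaling moved the median difference of all probe sets to -0.14, against -0.05 as reported. Reversals were among values that were not called. They were hif1al under median scaling (-0.025), the intermediate epas1a probe set in run 2 (-0.19) and 3 differences between paralogs. The change of the intermediate epas1a probe set minus that of hif1al, reported at -0.029, was 0.22 with the deposited values, 0.22 under median scaling, 0.0052 under cyclic loess, -0.15 to 0.065 without 1 hypoxia sample and -0.078 to 0.060 without 1 normoxia sample. That of the dimmest epas1a probe set minus hif1al2 was -0.76 to 0.098 without 1 hypoxia sample, and that of epas1b minus hif1ab -0.29 to 0.029. The causes were not tested. Dim signal limits arnt2 and 2 epas1a probe sets.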
